A study of Mus musculus with 6 samples.

Results

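Expression of imprinted growth genes and of the RNAs of the Meg3 locus was followed in adult mouse muscle in H19, Igf2, Igf2r, Meg3, Rian, Mirg, Dlk1, Peg3, Grb10 and Cdkn1c. These 10 genes were chosen by name, as textbook imprinted genes, out of 54393 genes in the deposited table. Earlier results of these data were known when they were chosen. Each symbol matched 1 row. The tissue was adult tibialis anterior, the fast muscle that lifts the foot. In all, 3 muscles were labelled WT, with sample titles that read C57, and 3 were labelled Dock3 KO. The labels give no strain for the knockout, no allele, no sex and no exact age, and they do not say whether each muscle came from a separate animal, so p-values measure the spread between these samples. Dock3 encodes an activator of the small GTPase Rac, and the comparison asks which transcripts differ in adult muscle when it is missing. Total RNA was depleted of ribosomal RNA and sequenced as read pairs from stranded libraries. Values are normalized counts, that is, estimated read counts per gene that the authors brought to a common scale.

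Imprinted genes are expressed mainly from the maternal or the paternal copy, because DNA methylation set in egg or sperm at a control region is kept after fertilization. Several act on growth: Igf2, a paternally expressed growth factor, is cleared by the receptor that the maternally expressed Igf2r encodes, while Grb10 and Cdkn1c encode inhibitors of growth signalling and of the cell cycle. Some control regions make long RNAs that encode no protein, among them H19 next to Igf2, and Meg3, Rian and Mirg next to Dlk1. H19, Igf2 and the Dlk1 and Meg3 region are known to be high in fetal and regenerating muscle and to fall after birth. The values here sum both parental copies, so they carry nothing on the state of the imprint.

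The RNAs without a coding role are hosts of small RNAs, and their sequences show what the libraries would have to capture to see the mature products. H19 is the host of Mir675, which yields a pair of mature miRNAs. Each is printed 5′ to 3′ with its seed, bases 2 to 8, in capitals (RefSeq, GRCm38.p6).
miR-675-5p: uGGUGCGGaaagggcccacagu
miR-675-3p: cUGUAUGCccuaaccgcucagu
Rian hosts 3 miRNA genes with RefSeq entries, which give 6 mature miRNAs with 6 different seeds.
miR-341-5p: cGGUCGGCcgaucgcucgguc
miR-341-3p: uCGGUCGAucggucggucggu
miR-1188-5p: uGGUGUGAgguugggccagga
miR-1188-3p: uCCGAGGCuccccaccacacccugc
miR-370-5p: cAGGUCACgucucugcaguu
miR-370-3p: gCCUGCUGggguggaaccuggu
Mirg is the host of 14 miRNA genes with RefSeq entries, whose 26 mature miRNAs carry 25 seeds. One seed, GGUUGCC, is shared within Mirg by a pair.
miR-453: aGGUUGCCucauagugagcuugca
miR-496a-5p: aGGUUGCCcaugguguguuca
Over the whole stretch from Dlk1 to Dio3 (chr12:109452823-110281097, GRCm38, 828275 bases), 61 miRNA genes gave 114 mature miRNAs with 104 seeds. The miRNA genes with RefSeq entries inside H19, Igf2, Meg3, Rian and Mirg have 21 rows in the table. In 14 of these rows every sample was listed at 0, Mir675 among them, and the highest value in any row was 7.01 normalized counts. The values below are therefore those of the long host RNAs.

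Start regions are shown for 4 genes. Peg3 and Grb10 had the lowest p-values of the 10 for the difference between genotypes. Meg3 and Rian are neighbours on the same strand that differ in the number of CpG pairs at the start. Each region is the 300 bases from 250 before to 50 after the start, on the gene's strand (RefSeq, GRCm38.p6). CpG pairs, the dinucleotide that carries the methylation of imprints, are in capitals.
Peg3, chr7:6730370-6730669, minus strand: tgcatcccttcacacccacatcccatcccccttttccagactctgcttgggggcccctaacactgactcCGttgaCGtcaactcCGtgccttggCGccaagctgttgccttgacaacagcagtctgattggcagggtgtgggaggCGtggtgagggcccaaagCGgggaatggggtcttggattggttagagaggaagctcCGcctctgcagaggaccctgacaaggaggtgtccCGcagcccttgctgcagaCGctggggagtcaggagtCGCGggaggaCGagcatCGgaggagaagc
Grb10, chr11:12037371-12037670, minus strand: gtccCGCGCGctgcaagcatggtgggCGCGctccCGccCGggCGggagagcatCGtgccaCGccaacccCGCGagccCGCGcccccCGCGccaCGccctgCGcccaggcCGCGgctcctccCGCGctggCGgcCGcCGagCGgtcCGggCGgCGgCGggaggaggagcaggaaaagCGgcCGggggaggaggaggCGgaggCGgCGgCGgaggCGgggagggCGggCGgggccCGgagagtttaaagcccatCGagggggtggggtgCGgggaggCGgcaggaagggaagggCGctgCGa
Meg3, chr12:109540746-109541045, plus strand: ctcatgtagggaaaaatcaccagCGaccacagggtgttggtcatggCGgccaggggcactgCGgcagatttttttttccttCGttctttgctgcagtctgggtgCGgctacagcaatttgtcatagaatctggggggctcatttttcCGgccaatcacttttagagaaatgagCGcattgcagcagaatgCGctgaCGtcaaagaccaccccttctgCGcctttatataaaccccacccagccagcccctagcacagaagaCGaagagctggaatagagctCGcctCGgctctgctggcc
Rian, chr12:109603695-109603994, plus strand: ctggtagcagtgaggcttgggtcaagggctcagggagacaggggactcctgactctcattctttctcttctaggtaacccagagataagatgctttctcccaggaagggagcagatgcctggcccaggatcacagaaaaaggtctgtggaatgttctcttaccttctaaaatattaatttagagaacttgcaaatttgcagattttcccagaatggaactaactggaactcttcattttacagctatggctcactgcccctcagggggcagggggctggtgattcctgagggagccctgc
RefSeq gives 2 windows each for Grb10 and Meg3, of which the upstream one is printed. The printed Grb10 window held 45 CpG, a number reached by 1.93% of the 32851 windows of 27025 genes, whose median was 7. Peg3 and the printed Meg3 window held 13 each, reached by 37.9% of windows, and Rian held 0. The downstream windows held 9 CpG in Grb10, reached by 45.8% of windows, and 1 in Meg3. Motifs were searched on both strands. The TATA box, TATAAA, gave 2 matches in the printed Meg3 window, 1 on each strand of the same stretch, TTTATATAAA. It gave none in the downstream Meg3 window and was found in 13.6% of all windows. The E-box, CANNTG, which myogenic factors bind, was found at 1 place each in the Rian window and the downstream windows of Grb10 and Meg3, and in 72.3% of all windows. The YY1 core, AANATGGC, was found in 6.05% of all windows and in none of the 4 printed. Of the 10 genes, 8 had a window. No methylation or binding was measured, so these sequences are context.

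The genotype labels were checked with Dock3, whose normalized counts were 169, 161 and 118 in the WT muscles (replicates 1, 3 and 4, the order used throughout). The Dock3 KO muscles (replicates 1, 2 and 3) gave 22.4, 1.78 and 1.54. The log2 difference of Dock3, Dock3 KO minus WT, was -4.76 (SE 0.75, adjusted p = 0.0140, limma with Benjamini-Hochberg adjustment). The libraries held approximately 21700000 to 32400000 reads, estimated from the low values, in which the most frequent low value, taken as the worth of 1 read, was 0.775 to 1.52 normalized counts. Dock3 KO replicates 1 and 2 stood apart: Gm42418 and Lars2 took 17.9% and 20.3% of their summed values, against 3.00% to 3.64% in the other 4 samples. Muscle was checked with 9 fibre markers, which summed to 1449093 to 1604085 normalized counts in WT and 1450369 to 1695921 in Dock3 KO, with 0 of 9 past the threshold (1 of 9 at an unadjusted p under 0.05, limma). In whole muscle, fewer cells of a type and less RNA per cell cannot be told apart.

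All 10 genes were measurable in adult muscle, each with a mean over the 6 samples of 10 or more normalized counts. None of the 10 genes passed an adjusted p of 0.05 between the genotypes, against 165 of 16031 genes tested, or 1.03% (0.443% higher and 0.586% lower in Dock3 KO). Peg3, Grb10 and Rian, 3 of the 10, had an unadjusted p under 0.05 (limma), against 10.5% of all genes tested. In 4 of the 10 the 3 Dock3 KO values did not overlap the 3 WT values, against 16.2% of all genes tested. Grb10 and Dlk1 were higher in every Dock3 KO sample than in every WT sample (7.6% of all genes), and Peg3 and Rian were lower (8.65% of all genes). The median log2 difference of the 10 genes was -0.01, with 5 above 0 and 5 below, and that of all genes tested was also -0.01. The 10 genes thus showed no shared direction. Their values are described below by role.

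**Figure D1:**
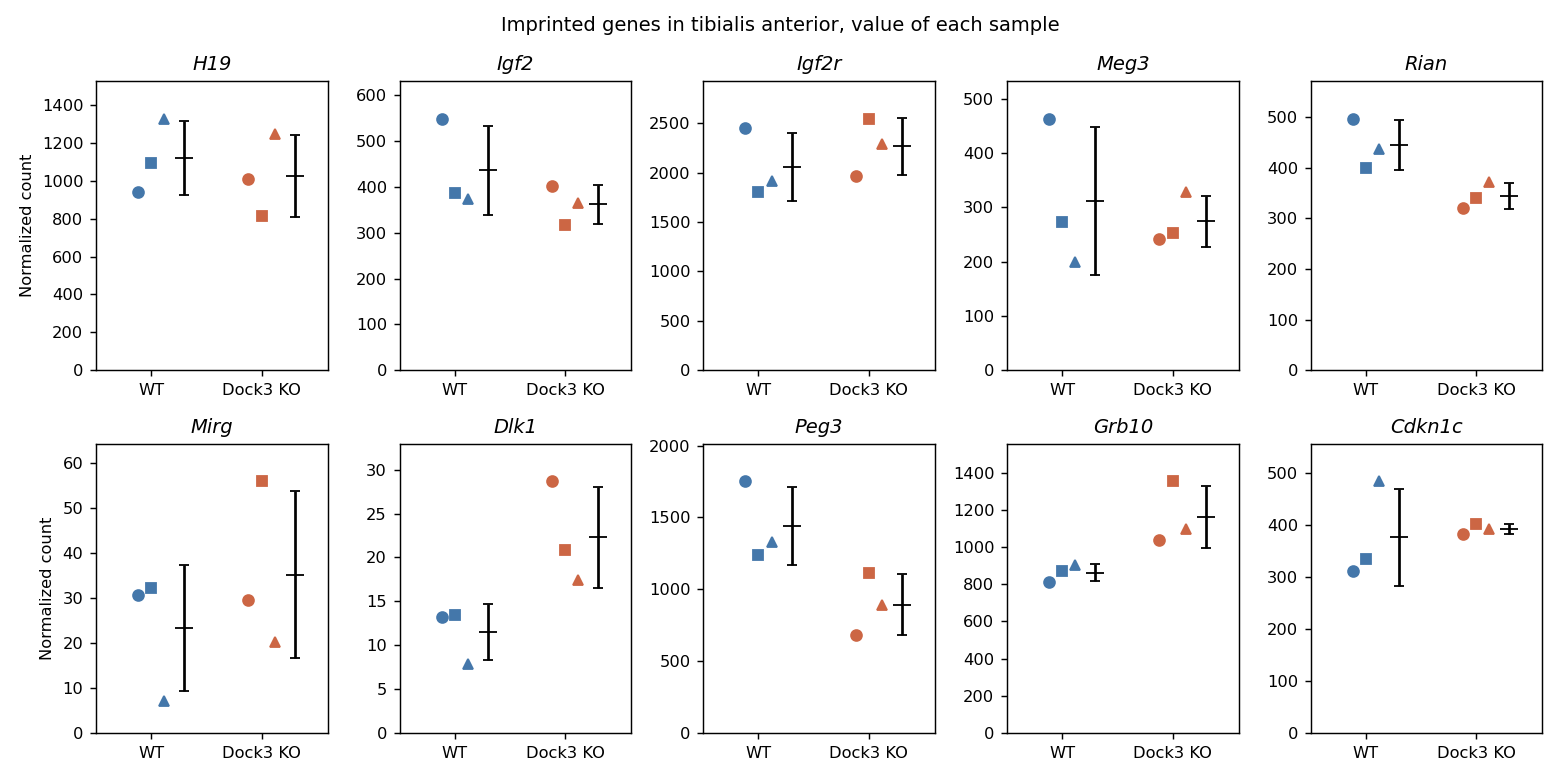
Normalized counts (y axis, from 0) of the 10 imprinted genes in each sample of the WT and Dock3 KO groups (x axis), 1 panel a gene; symbols are single samples, in replicate order from left to right, and bars are the mean ± SD of n = 3. The groups are apart for Rian, Dlk1, Peg3 and Grb10 and overlap for the other 6.

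Levels were first compared between genes per kilobase of the longest annotated transcript, as means over the 6 samples. H19 was the highest of the 10, at 469 normalized counts per kb, and was above the next gene, Igf2r at 243, in 6 of 6 samples. Cdkn1c (202) and Grb10 (200) came next, in an order that differed by genotype. Cdkn1c was above Grb10 in 3 of 3 WT samples (means of 198 and 170 per kb) and below it in 3 of 3 Dock3 KO samples (206 and 230), a difference that was not tested. Igf2r was above Cdkn1c, Grb10 above Peg3 (134) and Peg3 above Igf2 (84.5) in 5 of 6 samples each. Igf2, Rian (48.7), Meg3 (20.2), Mirg (7.65) and Dlk1 (3.63) followed in an order that held in 6 of 6 samples. Per length of the longest transcript, adult tibialis anterior thus held far more H19 than Meg3. Dlk1, a protein-coding gene of the Meg3 region, was the lowest of the 10. Meg3 has 11 annotated transcripts and Rian 20, and which of them were present was not tested. The order of the genes and the gaps between them therefore depend on the length chosen, which agreement among samples cannot check.

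H19 and its neighbour Igf2 share a control region and enhancers. H19 (ENSMUSG00000000031, chr7:142575529-142578143, minus strand, GRCm38) is a spliced long RNA that restrains growth. Its values were 940, 1095 and 1327 normalized counts in WT and 1009, 815 and 1247 in Dock3 KO. The groups overlapped, with the lowest value in Dock3 KO replicate 2 and the highest in WT replicate 4. The means were 1121 ± 195 (SD, n = 3) and 1024 ± 216 (SD, n = 3). The fold, Dock3 KO over WT on the log2(value + 1) scale, was 0.909 with a 95% interval of 0.682 to 1.21 (adjusted p = 0.874). The sign of this difference turned when Dock3 KO replicate 2 was left out (log2 0.02).

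Igf2 (ENSMUSG00000048583, chr7:142650766-142666816, minus strand) encodes insulin-like growth factor 2, a ligand of the type 1 IGF receptor that is made during myoblast differentiation. It stood at 549, 386 and 374 in WT and 402, 318 and 365 in Dock3 KO. WT replicate 1 lay above the other 5 samples, which ranged from 318 to 402. The fold was 0.838 (95% interval 0.628 to 1.12, adjusted p = 0.720), and without WT replicate 1 the log2 difference shrank from -0.25 to -0.08. The overlapping genes Gm49394 and Mir483 were listed at 0 in every sample, and the antisense gene Igf2os stayed at or below 3.11.

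Igf2 reached 58.3%, 35.3% and 28.2% of the H19 value in WT and 39.8%, 39.0% and 29.3% in Dock3 KO. The ratios overlapped, at 40.6 ± 15.8% and 36.0 ± 5.86% (SD, n = 3). Within 200 kb on either side of H19, 21 genes are annotated and 9 had a mean of at least 10. The 3 highest were Tnnt3 and Tnni2, subunits of fast skeletal troponin, and Ctsd, a lysosomal protease. Tnnt3 and Tnni2 differed by log2 0.00 and -0.03 (adjusted p = 0.998 and 0.981). Ctsd stood at 9084, 9167 and 8942 in WT and 6764, 8036 and 6545 in Dock3 KO, without overlap, and missed the threshold (log2 -0.36, SE 0.13, adjusted p = 0.326). Nctc1, a muscle RNA transcribed next to H19 and chosen after its values were seen, stood at 1190, 1689 and 1146 in WT and 1185, 1181 and 1099 in Dock3 KO (log2 -0.19, adjusted p = 0.758).

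Igf2r (ENSMUSG00000023830, chr17:12682406-12769664, minus strand) encodes the mannose 6-phosphate receptor, which carries IGF2 to lysosomes. Its values were 2455, 1807 and 1913 in WT and 1963, 2546 and 2289 in Dock3 KO, and the groups overlapped. The fold was 1.10 (95% interval 0.868 to 1.41, adjusted p = 0.832). Airn, the antisense RNA that starts inside Igf2r on the paternal copy and is known to silence Igf2r there, is not one of the 10 but shares the locus. Airn stood at 83.8, 105 and 121 in WT and 207, 167 and 192 in Dock3 KO, so every Dock3 KO sample was above every WT sample. Its log2 difference was 0.87 (SE 0.21, fold 1.83, adjusted p = 0.126), short of the threshold. Relative to Igf2r, Airn reached 3.41%, 5.84% and 6.34% in WT and 10.6%, 6.55% and 8.37% in Dock3 KO. These ratios did not overlap, although WT replicate 4 and Dock3 KO replicate 2 lay close together. Whether counting used the strand is not given in the sources used here. Reads of Airn inside Igf2r introns therefore may not be separable from unspliced Igf2r RNA.

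**Figure D2:**
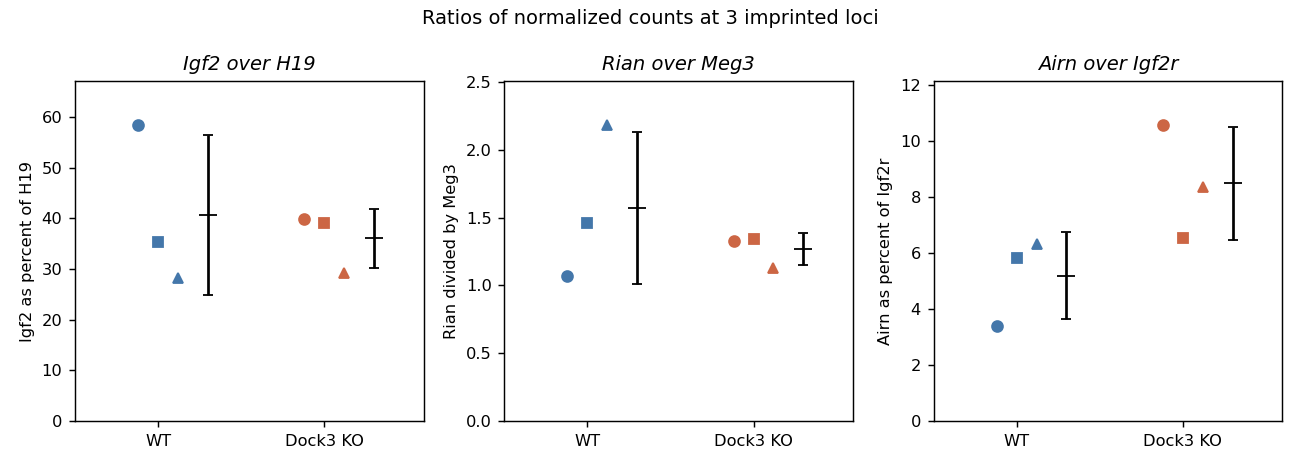
Igf2 as percent of H19, Rian divided by Meg3, and Airn as percent of Igf2r (y axes, from 0) in each sample of the 2 genotypes (x axis); symbols are samples and bars the mean ± SD of n = 3. The Airn ratio is apart between groups (3.41% to 6.34% and 6.55% to 10.6%), and the other 2 overlap.

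The Dlk1 and Meg3 region on chromosome 12 expresses Dlk1 from the paternal copy and Meg3, Rian and Mirg from the maternal one. Meg3 (ENSMUSG00000021268, chr12:109541001-109571726, plus strand), a nuclear long RNA, stood at 464, 273 and 200 normalized counts in WT and 242, 253 and 329 in Dock3 KO. The WT samples spanned more than the Dock3 KO samples, with the highest and the lowest of the 6 both in WT. The fold was 0.926 with a 95% interval of 0.598 to 1.43 (adjusted p = 0.944). Leaving out WT replicate 1 turned the log2 difference from -0.11 to 0.22.

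Rian (ENSMUSG00000097451, chr12:109603940-109661716, plus strand), which carries C/D-type small nucleolar RNAs in its introns, varied less among the WT samples. It stood at 496, 399 and 436 in WT and 321, 339 and 372 in Dock3 KO, with every Dock3 KO sample below every WT sample. The means were 444 ± 49.1 and 344 ± 25.7 (SD, n = 3 each). The fold was 0.777 (95% interval 0.613 to 0.984, adjusted p = 0.437). Without Dock3 KO replicates 1 and 2 the log2 difference was -0.25 in place of -0.36 (adjusted p = 0.831), from 1 Dock3 KO sample whose spread is assumed to be that of the WT samples.

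Mirg (ENSMUSG00000097391, chr12:109729764-109749460, plus strand), the host of the miRNA cluster, was low and scattered. Its values were 30.7, 32.2 and 7.06 in WT and 29.5, 55.9 and 20.2 in Dock3 KO. The interval of its fold, 0.635 to 4.20 around 1.63, was the widest of the 10 (adjusted p = 0.766). Without WT replicate 4, the lowest of the 6, the log2 difference was 0.038 in place of 0.71, and without Dock3 KO replicate 2 it was 0.32. Meg3, Rian and Mirg summed to 991, 705 and 643 in WT and 593, 648 and 720 in Dock3 KO, and these sums overlapped. Rian over Meg3 was 1.07, 1.46 and 2.18 in WT and 1.33, 1.34 and 1.13 in Dock3 KO, so the 2 RNAs did not keep 1 ratio among WT muscles. WT replicate 1 was the highest of the 6 samples for Igf2, Meg3, Rian and Peg3.

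Dlk1 (ENSMUSG00000040856, chr12:109452823-109463336, plus strand) encodes a membrane protein of the Notch ligand family that holds back adipocyte differentiation and is made in fetal and regenerating muscle. It stood at 13.2, 13.4 and 7.81 in WT and 28.7, 20.8 and 17.4 in Dock3 KO, without overlap. The means were 11.5 ± 3.18 and 22.3 ± 5.78 (SD, n = 3 each), and the fold was 1.87 with a 95% interval of 0.904 to 3.88 (adjusted p = 0.561). With 1 read worth approximately 0.775 to 1.52 normalized counts, few reads lie behind these values. Of 118 genes annotated from Dlk1 to Dio3, 45 were above 0 in any sample and 7 had a mean of at least 10, with Rian, Meg3 and Mirg the 3 highest. None of 67 miRNA genes and none of 23 small nucleolar RNA genes there reached that mean, and their highest values were 7.01 and 5.52.

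The remaining genes act as brakes on growth or as transcriptional regulators, in other regions. Grb10 (ENSMUSG00000020176, chr11:11930508-12038683, minus strand) encodes an adaptor that binds the insulin and IGF1 receptors and limits their signal, and mice without the maternal copy have larger muscles. It stood at 810, 871 and 902 in WT and 1035, 1352 and 1098 in Dock3 KO, with every Dock3 KO sample above every WT sample. The means were 861 ± 46.8 and 1162 ± 168 (SD, n = 3 each). The fold was 1.34 (95% interval 1.08 to 1.67, adjusted p = 0.292). When samples were rescaled to the same total the groups overlapped and the log2 difference was 0.15 in place of 0.42, and they also overlapped when Gm42418 and Lars2 were left out of that total (log2 0.32).

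Cobl, an actin nucleator imprinted next to Grb10 in some tissues, lay in the same direction. It stood at 642, 670 and 729 in WT and 1088, 789 and 1005 in Dock3 KO (log2 0.49, SE 0.15, adjusted p = 0.254). Rescaled to the same total its log2 difference was 0.21, and 0.38 when Gm42418 and Lars2 were left out of that total.

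Cdkn1c (ENSMUSG00000037664, chr7:143458339-143461050, minus strand) encodes p57, an inhibitor of cyclin-dependent kinases that accompanies cell cycle exit of myoblasts. Its values were 311, 334 and 483 in WT and 382, 401 and 391 in Dock3 KO. The Dock3 KO samples all lay inside the WT range. The fold was 1.06, with a 95% interval of 0.796 to 1.42 (adjusted p = 0.931). Without WT replicate 1 the log2 difference turned from 0.09 to -0.037.

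Peg3 (ENSMUSG00000002265, chr7:6703892-6730431, minus strand) encodes a large zinc finger protein, made from the paternal copy, that is expressed in muscle progenitors and interstitial cells. It stood at 1750, 1237 and 1332 in WT and 681, 1112 and 889 in Dock3 KO. All 3 Dock3 KO samples were below all 3 WT samples, and the closest pair was 1112 and 1237. The means were 1440 ± 273 and 894 ± 215 (SD, n = 3 each). The fold was 0.616 (95% interval 0.453 to 0.838), the lowest p of the 10, and the adjusted p was 0.197. An exact two-sided permutation test gave 0.1 for Peg3, Grb10, Rian and Dlk1, the smallest p that 3 against 3 samples allow. Without Dock3 KO replicates 1 and 2, which leaves 1 Dock3 KO sample, the log2 difference of Peg3 was -0.68 in place of -0.70. Those of Grb10 and Dlk1 were 0.35 and 0.60 in place of 0.42 and 0.91. A single Dock3 KO sample cannot show how far these values vary.

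**Figure D3:**
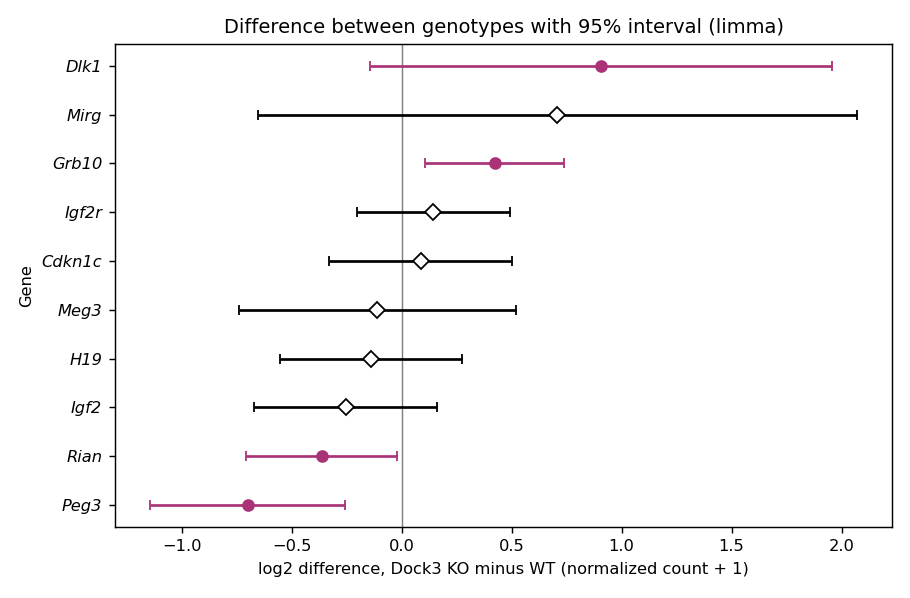
Log2 difference of each of the 10 genes, Dock3 KO minus WT (x axis, log2 of normalized count + 1), with its 95% interval from limma over 3 against 3 samples; genes are on the y axis. Filled circles are genes whose groups do not overlap; only the intervals of Peg3, Rian and Grb10 leave out 0, before adjustment over genes.

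Other imprinted genes were taken from a list of 59, of which 58 were in the table and 42 could be tested. None of the 42 passed the threshold, and 5 had an unadjusted p under 0.05 (limma), against 10.5% of all genes tested. In 8 of the 42 the groups did not overlap, against 16.2% of all genes tested. Above 0 lay 20 of the 42, and below it 22. Their median log2 difference was -0.02. Airn had the lowest p, followed by Slc38a4, Nnat and Cobl. Slc38a4, an amino acid transporter gene of the paternal copy, stood at 1611, 1585 and 1316 in WT and 1037, 1207 and 684 in Dock3 KO. Its groups did not overlap (log2 -0.66, SE 0.20, adjusted p = 0.243). Rescaled to the same total, it passed the threshold (log2 -0.93, adjusted p = 0.0392).

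Nnat, a small membrane protein gene of the paternal copy, stood at 50.7, 2.51 and 1.72 in WT and 82.3, 82.3 and 41.9 in Dock3 KO. WT replicate 1 lay inside the Dock3 KO range while the other WT samples were near the level of a few reads. The log2 difference was 3.08 (SE 0.96, adjusted p = 0.252), and without WT replicate 1 it was 4.43 (adjusted p = 0.00418). The 3 imprinted genes of highest mean did not pass either. Dcn, a matrix proteoglycan gene imprinted in placenta only, differed by -0.28 (adjusted p = 0.654). Gnas, the stimulatory G protein subunit, differed by 0.25 (adjusted p = 0.604) and Ube3a, a ubiquitin ligase, by 0.09 (adjusted p = 0.921). The signs of the last pair turned when samples were rescaled to the same total.

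**Figure D4:**
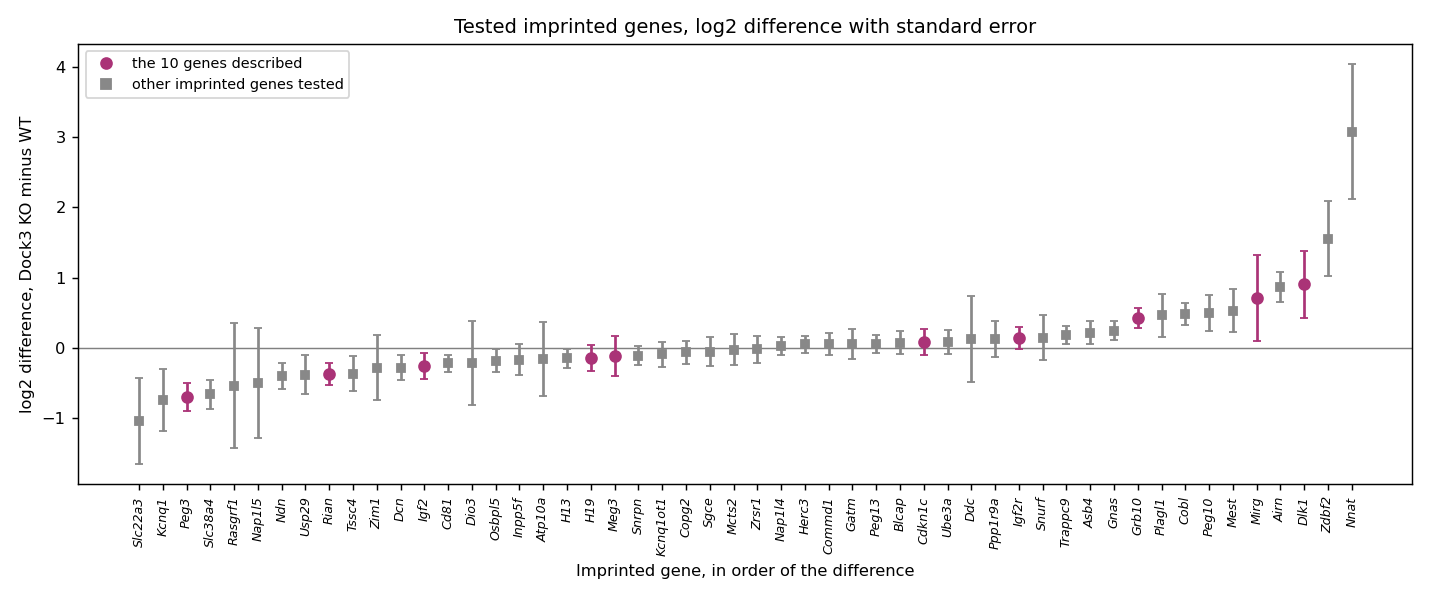
Log2 difference, Dock3 KO minus WT (y axis), with its standard error (n = 3 a group) for the 10 genes (circles) and the 42 other imprinted genes tested (squares), in order of the difference (x axis). The 10 genes run from Peg3 at -0.70 to Dlk1 at 0.91, inside the range of the other imprinted genes (-1.04 to 3.08).

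IGF and insulin receptor genes form the pathway in which Igf2, Igf2r and Grb10 act. Of 26 listed, 22 were tested and 0 passed the threshold. An unadjusted p under 0.05 (limma) was found for 1 of the 22, against 10.5% of all genes tested. Above 0 lay 13 and below it 9 (median 0.05). The 4 of lowest p were Pappa2, Igf1r, Pappa and Stc2. Pappa2, a protease that frees IGF from its binding proteins, stood at 7.21, 27.2 and 36.9 in WT and 6.26, 3.40 and 2.24 in Dock3 KO (log2 -2.14, SE 0.73, adjusted p = 0.309). Igf1r, the receptor for both IGFs, stood at 913, 886 and 810 in WT and 588, 708 and 818 in Dock3 KO, with overlap (log2 -0.31, adjusted p = 0.516). Pappa, a related protease, differed by 0.53 (adjusted p = 0.554) and Stc2, an inhibitor of both proteases, by -0.70 (adjusted p = 0.618). The 3 of highest mean were Igfbp5, an IGF binding protein (log2 -0.26, adjusted p = 0.621), Irs1, the docking protein of these receptors (log2 0.22, adjusted p = 0.863), and Akt2, a kinase below them (log2 0.15, adjusted p = 0.791). Irs1 and Akt2 turned sign when rescaled to the same total.

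Regulators of imprinted loci were taken from a list of 21 genes, among them DNA methyltransferases, the TET enzymes that oxidize methylated cytosine, and MEF2 factors, which act on the Dlk1 and Meg3 region in muscle. Of these, 19 were tested and 0 passed. An unadjusted p under 0.05 (limma) was found for 1 of the 19, against 10.5% of all genes tested. Above 0 lay 12 and below it 7 (median 0.04). Tet3 stood at 779, 987 and 902 in WT and 582, 491 and 779 in Dock3 KO, the closest samples being nearly equal (log2 -0.55, SE 0.18, adjusted p = 0.297). Dnmt3a, a methyltransferase that sets imprints in germ cells, differed by -0.30 (adjusted p = 0.538). Ctcf, the factor that separates Igf2 from its enhancers on the maternal copy, differed by 0.24 (adjusted p = 0.610). Mef2c, Mef2a and Mef2d differed by 0.26, 0.08 and 0.09 (adjusted p = 0.574, 0.918 and 0.870). Ctcf and the 3 MEF2 genes turned sign when rescaled to the same total.

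Markers of the cells that could carry these RNAs were summed in each sample. Markers of newly formed or developing fibres, in which H19, Igf2 and Dlk1 are known to be high, summed to 2050 to 2808 normalized counts in WT and 1096 to 1401 in Dock3 KO, without overlap. Of 9 tested, 8 lay below 0, 6 had an unadjusted p under 0.05 (limma; 10.5% of all genes) and 6 had groups without overlap, all 6 lower in Dock3 KO (8.65% of all genes). Of these, Ncam1, a neural adhesion molecule of immature and denervated fibres, passed the adjusted threshold (log2 -1.24, SE 0.24, adjusted p = 0.0464). The Ncam1 call was lost whichever 1 of the 6 samples was left out, and under 19 alternatives its adjusted p ran from 0.0146 to 0.235. Mymx, which encodes the fusion peptide myomixer, was listed at 0 in all 3 Dock3 KO samples and stood at 8.61, 41.7 and 26.3 in WT. Satellite cell markers summed to 886 to 928 in WT and 755 to 953 in Dock3 KO, with 0 of 6 past the threshold (1 at an unadjusted p under 0.05, limma). Fibro-adipogenic progenitor markers summed to 64480 to 71993 in WT and 66460 to 75552 in Dock3 KO. Of these 10 markers, 4 lay above 0 and 6 below, with a median log2 difference of -0.08. The collagen genes Col3a1 and Col1a1, 2 of the 10, rose past the threshold (0.443% of all genes tested). Each call was lost in 3 of 6 fits with 1 sample left out. That of Col3a1 was lost without WT replicate 4 or Dock3 KO replicate 1 or 2, and that of Col1a1 without any 1 of the Dock3 KO replicates. Tenocyte, endothelial, smooth muscle and pericyte, macrophage, adipocyte, Schwann cell and red cell markers had 0 of 44 past the threshold. Of the 44, 3 had an unadjusted p under 0.05 (limma). Among their sums in Dock3 KO, only those of red cells and tenocytes reached above the WT range, and only those of macrophages reached below it. Macrophage markers summed to 4253 to 4672 in WT and to 4267, 3808 and 3815 in Dock3 KO, with 7 of 8 log2 differences below 0. Other lists leaned to 1 side as well. Above 0 lay 6 of 6 red cell, 5 of 6 tenocyte and 5 of 6 adipocyte markers. Below 0 lay 5 of 6 endothelial and 4 of 6 smooth muscle and pericyte markers, and Schwann cell markers had 3 on each side. The part of cell composition in the values of Peg3, Rian, Dlk1 and Grb10 was not tested.

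The differences were recomputed under 19 other settings of scaling, filter, pseudocount, variance model, block, covariate and samples left out. None of 188 fits of the 10 genes passed the threshold, and the lowest adjusted p was 0.0727, for Peg3 rescaled to the same total. Peg3 (-0.97 to -0.52), Rian (-0.64 to -0.25), Igf2 (-0.53 to -0.08), Grb10 (0.15 to 0.50) and Dlk1 (0.56 to 1.06) kept their sign in each setting in which they were fitted. H19, Igf2r, Meg3, Mirg and Cdkn1c changed sign in 1 or more. The filter and variance model settings leave a log2 difference as it is, so only the other settings could turn a sign.

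**Figure D5:**
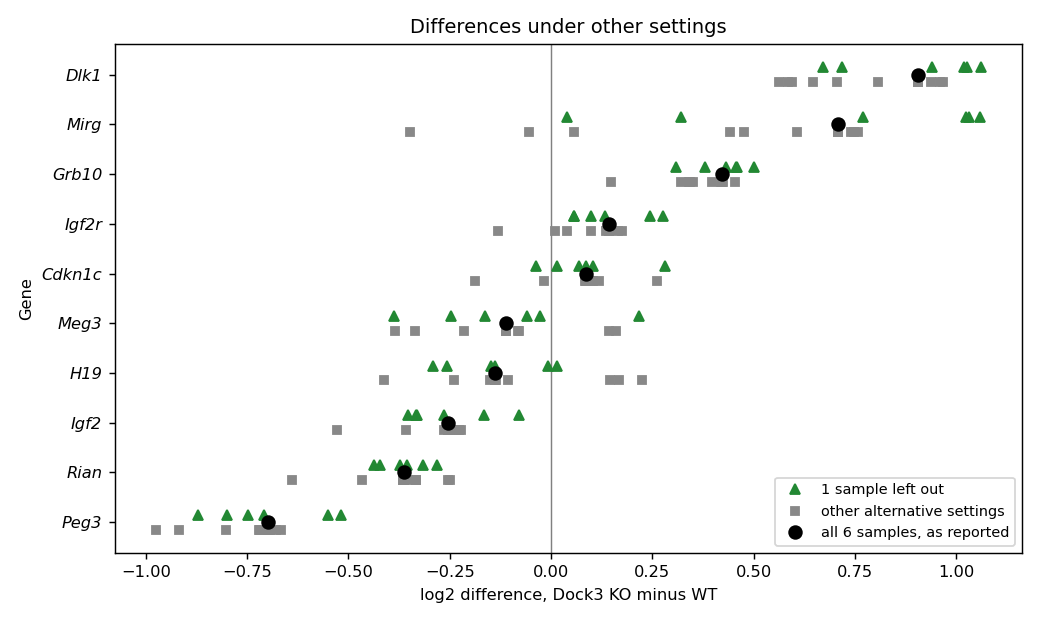
Log2 difference, Dock3 KO minus WT (x axis), of each of the 10 genes (y axis) over all 6 samples (black circles), with 1 sample left out (green triangles) and under the other settings (grey squares). Peg3, Rian, Igf2, Grb10 and Dlk1 stay on 1 side of 0, and the other 5 genes cross it.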

How the data were processed

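RNA from 6 tibialis anterior muscles, 3 WT and 3 Dock3 KO by their genotype labels, was compared. The authors deposited 1 table of normalized counts, a signal rather than whole counts. Per the submitters' processing notes, the tools were FastQC, Trim Galore 0.4.5, Salmon 0.12.0, DESeq2 1.22.1 and R 3.5.3, with the builds mm10 and GRCm38. Their order, the scaling and the use of strand are not given in the sources used here. Reads shared by near-identical genes were assigned by a rule that is not given either. Only 15.2% to 26.0% of low values were whole multiples of the value of 1 read (within 0.01 reads), so no count test was run, depth is an estimate, and no counting interval is given.

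All 54393 identifiers matched GENCODE M21 (GRCm38). Values were taken as log2(value + 1), so folds of low genes are understated. Genes with a mean of at least 10 were tested with limma 3.58.1 in R 4.3.3 (eBayes, trend, no covariate), with Benjamini-Hochberg adjustment over 16031 genes and a threshold of 0.05. The steps were tested on simulated data. Exact permutation tests, ratios and plots used Python 3.11.15, numpy 2.4.6, pandas 2.3.3, scipy 1.17.1 and matplotlib 3.10.9. Sequences are from RefSeq, GRCm38.p6.

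The 10 genes and all lists were chosen with earlier results of these data known. Named are the 10 genes, Dock3, and of 3 lists the genes past the threshold, the 4 of lowest p and the 3 of highest mean, plus the 3 of highest mean around H19 and from Dlk1 to Dio3. Lars2, Gm42418 and the overlapping genes and cell markers named were chosen after their values were seen. Peg3os was not matched. Alternatives were other pseudocounts, filters, variance models, scalings, a replicate block, a Gm42418 covariate and leaving out samples. Those added after seeing the data were rescaling without Gm42418 and Lars2 and leaving out Dock3 KO replicates 1 and 2.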

Additional observations from a re-analysis of the deposited data

How the results depend on the processing

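Few reads lie behind Dlk1 and Mirg, which a minimum mean of 50 left out. Rescaling to the same total shifts the median of all genes by -0.27, and by -0.10 without Gm42418 and Lars2. Count tests on recovered reads were not run because whole reads could not be recovered. The cause of the changes below was not tested.

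Genes past the threshold numbered 165, and 104 with a prior variance without trend, 57 with log2 Gm42418 as a covariate, 56 without Dock3 KO replicates 1 and 2, and 100 to 159 when 1 sample was left out. The share that was higher in Dock3 KO was 43.0%, and 32.7%, 29.8% and 16.1% in the first 3 of these settings, 23.2% rescaled to the same total and 32.1% rescaled without Gm42418 and Lars2. Other imprinted genes past it numbered 0, and 1 rescaled to the same total; with 1 sample left out they numbered 0 to 1.

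The WT and Dock3 KO samples share the numbers 1 and 3. Same-numbered samples deviated together little (r = 0.065 and 0.0066), within the range of differently numbered ones (-0.077 to 0.082). So few pairs cannot show whether the numbers stand for a pairing, and the labels give none. A replicate block, with 1 residual degree of freedom, gave 127 genes. With the block, the log2 differences turned sign for H19 (0.15), Mirg (-0.35), Ube3a (-0.065) and Irs1 (-0.20).

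Signs also turned with the Gm42418 covariate for H19 (0.23), Meg3 (0.14), Mirg (-0.054) and Ube3a (-0.085). Without Dock3 KO replicates 1 and 2 they turned for H19 (0.17), Meg3 (0.16) and Ube3a (-0.031). Rescaled to the same total they turned for Igf2r (-0.13), Cdkn1c (-0.19), Gnas (-0.028), Ube3a (-0.19), Irs1 (-0.057), Akt2 (-0.12), Mef2c (-0.019), Ctcf (-0.038), Mef2a (-0.20) and Mef2d (-0.18). Without Gm42418 and Lars2 in that total they turned for Cdkn1c (-0.017), Ube3a (-0.013), Mef2a (-0.025) and Mef2d (-0.0090), and with quantile normalization for Mef2a (-0.0037). With 1 sample left out the ranges were -0.29 to 0.016 for H19, -0.39 to 0.22 for Meg3, 0.038 to 1.06 for Mirg, -0.037 to 0.28 for Cdkn1c, -0.043 to 0.26 for Ube3a, -0.093 to 0.56 for Irs1 and -0.020 to 0.18 for Mef2a.

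Dock3 missed the threshold without trend (-4.76, adjusted p = 0.123) and with the covariate (-5.94, adjusted p = 0.0836), and ranged from -5.81 to -4.21 with 1 sample left out (adjusted p up to 0.0771). Of the 10 genes, 4 had groups without overlap as deposited and 3 under both rescalings. With 1 sample left out the number was 4 to 5. That number could not fall below 4, because leaving out a sample cannot make separate groups overlap.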

Other observations

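Among the other imprinted genes, further genes are given here that were chosen after their values were seen. Ndn, a growth suppressor of the paternal copy, stood at 223, 324 and 253 normalized counts in WT and 199, 186 and 215 in Dock3 KO (log2 -0.40, adjusted p = 0.509, limma). Peg10, a gene derived from a retrotransposon, stood at 55.0, 65.1 and 52.0 in WT and 68.3, 96.4 and 81.8 in Dock3 KO (log2 0.50, adjusted p = 0.541). Zdbf2, a paternally expressed zinc finger gene, overlapped and varied widely, at 44.5, 11.5 and 19.7 in WT and 35.3, 103 and 78.4 in Dock3 KO (log2 1.56, adjusted p = 0.310). Rtl1, the retrotransposon-derived coding gene between Dlk1 and Dio3 that is known from fetal muscle, was at 0 to 5.60 and was not tested. Usp29 and Zim1, neighbours of Peg3, overlapped between groups and differed by -0.38 and -0.28 (adjusted p = 0.716 and 0.908).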
